A study of Homo sapiens with 18 samples.

Results

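Levels of messenger RNA reached under docosahexaenoic acid (DHA) were compared between 2 hairpin lines of MDA-MB-231, an established triple-negative breast cancer line. The comparison rests on 6 of the 18 libraries of the series, chosen by their labels: 3 of sh-IGFBP6 cells under DHA and 3 of sh-LUC cells under DHA. The sh-IGFBP6 cells carry a short hairpin RNA against IGFBP6 and are labelled as a knockdown. The sh-LUC cells carry the control hairpin, which is directed at luciferase, and their genotype is labelled WT. In both DHA groups the cells were kept for 24 h in 200 µM DHA, added in ethanol, with 0.5% DMSO. The other 12 libraries were the same lines, 3 each, in 2.5 µM erastin, an inhibitor of cystine uptake, or in vehicle (0.5% DMSO and 0.5% ethanol). They enter here where the line difference under DHA is set against the line difference without it. Each arm is 1 hairpin line, and the labels do not say whether a line is a clone or a pool. They are silent, too, on whether replicate samples were grown separately, so the p-values cover the scatter among libraries, part or all of which may be technical.

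DHA is a fatty acid with many double bonds, and once built into membrane phospholipids it is readily oxidised. Ferroptosis is the iron-dependent form of cell death that follows when such lipid peroxides build up. It is held back by GPX4, which reduces lipid peroxides with glutathione, and glutathione is made from the cystine that the transporter SLC7A11 brings in. IGFBP6 encodes a secreted binding protein with a preference for insulin-like growth factor 2.

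IGFBP6 itself (chr12:53097436-53102345, GRCh38, plus strand) had 0.896, 1.16 and 0.748 CPM in the sh-IGFBP6 DHA libraries, against 12.2, 14.2 and 15.1 CPM in the sh-LUC DHA libraries (log2 fold change -3.79, SE 0.27, adjusted p = 6.0e-26). CPM is a count scaled to the effective size of its library, and every fold change is sh-IGFBP6 over sh-LUC, with adjusted p-values from edgeR's quasi-likelihood test and the Benjamini-Hochberg method. The groups did not overlap, and IGFBP6 stayed lower in sh-IGFBP6 cells in vehicle (log2 fold change -3.72, SE 0.27, adjusted p = 7.2e-26). Total gene counts lay between 3174015 and 6592609 in the sh-IGFBP6 DHA libraries and between 5666029 and 7937608 in the sh-LUC DHA libraries. Mitochondrial ribosomal RNA took 0.294% to 0.504% of the counts in sh-IGFBP6 DHA libraries and 0.0349% to 0.0817% in sh-LUC DHA libraries, and its part in the results was not tested. The first principal component of all libraries, with 64.8% of the variance, separated the 2 lines. A library outside the comparison, sh-IGFBP6 erastin replicate 3, stood apart, with 54.4% of its counts on mitochondrial ribosomal RNA, and it entered the shared estimate of the spread. Of 12 markers of mesenchymal basal lines, 11 were tested, 5 higher and 5 lower in sh-IGFBP6, with only SPARC too low to test. Their summed level was 5551 to 5805 CPM in sh-IGFBP6 DHA and 6480 to 6723 CPM in sh-LUC DHA. VIM, a mesenchymal filament protein, had 1039 ± 56.1 CPM in sh-IGFBP6 cells and 885 ± 43.3 CPM in sh-LUC cells under DHA (SD, n = 3 each). CAV1 and CAV2, of the same list, were lower in sh-IGFBP6. Of 11 basal and myoepithelial markers 7 were tested, 1 higher and 3 lower in sh-IGFBP6. Their sum ran the other way, with 1025 to 1095 CPM in sh-IGFBP6 DHA and 740 to 766 CPM in sh-LUC DHA. Of 20 luminal and epithelial markers 15 were tested, 3 higher and 9 lower in sh-IGFBP6, and their sum was 779 to 869 CPM in sh-IGFBP6 DHA and 1293 to 1339 CPM in sh-LUC DHA. The estrogen receptor gene ESR1 averaged 1.98 CPM in sh-IGFBP6 and 0.903 CPM in sh-LUC, and the progesterone receptor gene PGR was too low to test. FOXA1, a luminal transcription factor, was an exception to this low level in 1 line, with 36.1, 34.4 and 35.7 CPM in the sh-IGFBP6 DHA libraries, against 0.165, 0 and 0 CPM in the sh-LUC DHA libraries. Of 17 leukocyte markers, 14 were too low to test and the other 3 were lower, with a sum of 10.2 to 16.5 CPM in sh-IGFBP6 DHA and 34.6 to 36.6 CPM in sh-LUC DHA.

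Under DHA the lines differed at most of the genes they expressed. Of 15189 genes tested, 10617 (69.9%) were called at an adjusted p under 0.05, 5332 (35.1%) higher and 5285 (34.8%) lower in sh-IGFBP6 cells. At least a 2-fold difference was reached by 1854 of the called genes (12.2% of those tested) on the higher side and by 2221 (14.6%) on the lower side. The 3 libraries of one line lay wholly above or below those of the other at 10680 genes (70.3%). Counts of list members are read against these shares. The lines expressed similar numbers of genes: 14420 in sh-IGFBP6 and 14471 in sh-LUC reached a mean of 1 CPM, and 13780 did so in both. At the top of the range they shared less, with 53 genes at 1000 CPM or more in sh-IGFBP6, 46 in sh-LUC and 27 in both. Calls were most frequent among genes with a mean of 100 to 1000 CPM over both groups, where 84.1% of 2277 were called, and least frequent at 1 to 10 CPM, where 56.3% of 5068 were.

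**Figure D1:**
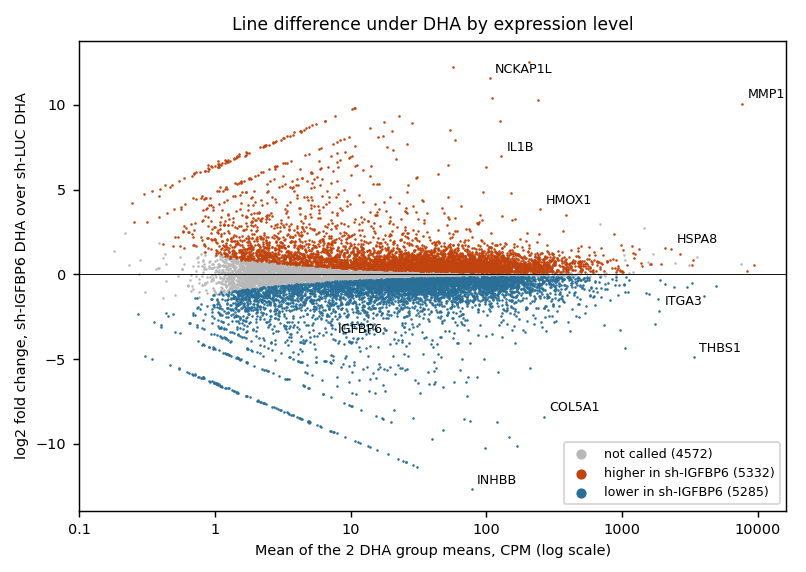
Each point is 1 of 15189 tested genes, by the mean of its 2 DHA group means in CPM (horizontal, log scale) and its log2 fold change, sh-IGFBP6 over sh-LUC, under DHA (vertical). Orange points (5332) were called higher and blue points (5285) lower in sh-IGFBP6, and the diagonal rows of points at the margins are genes with few or no counts in 1 group, whose fitted fold change depends on the prior count.

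The widest differences were of genes that 1 line hardly transcribed. MMP1, an interstitial collagenase (chr11:102789920-102798160, minus strand), had 14963, 15322 and 15375 CPM in the sh-IGFBP6 DHA libraries, against 8.58, 15.9 and 17.1 CPM in the sh-LUC DHA libraries (log2 fold change 10.08, SE 0.30, adjusted p = 1.0e-12). It was among the most abundant transcripts of the sh-IGFBP6 line and a minor one of the sh-LUC line. MMP3, the stromelysin encoded close to it, had 413, 399.6 and 413 CPM in sh-IGFBP6 and 1 count in the 3 sh-LUC libraries together, a ratio of 8991 with a 95% counting interval of 1613 to 355198. IL13RA2, a decoy receptor of interleukin 13, had 112, 117 and 109.8 CPM in sh-IGFBP6 and no count in sh-LUC, at least 839-fold higher when set against 3 counts over the group. NCKAP1L, a subunit of the actin-regulating WAVE complex of blood cells, had 208, 216 and 213 CPM in sh-IGFBP6 and 1 count in sh-LUC. TIE1, a receptor kinase of endothelium, had 216, 211 and 235 CPM in sh-IGFBP6 and 3 counts in sh-LUC. Among 16 fibroblast and endothelial markers TIE1 alone was called higher, 4 were called lower, and the untested ones included the endothelial genes VWF, CDH5 and TEK. The summed level of the list was 236 to 259 CPM in sh-IGFBP6 DHA and 89.3 to 108 CPM in sh-LUC DHA. EPB41L3, a membrane-cytoskeleton linker, had 503, 493 and 451 CPM in sh-IGFBP6 cells under DHA and 0.495, 0.115 and 0.543 CPM in sh-LUC cells under DHA.

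On the other side, the 6 genes named here had no count in any sh-IGFBP6 DHA library. INHBB, the beta B subunit of inhibin and activin, had 173, 137 and 157 CPM in sh-LUC cells, so that it was at least 731-fold lower in sh-IGFBP6, again against 3 counts over the group. L1CAM, a neural adhesion molecule, had 61.4, 64.5 and 58.1 CPM in sh-LUC, at least 293-fold lower in sh-IGFBP6. The others were LYPD6B, SHISA2, SORCS2 and RCSD1, with means of 58.0, 51.5, 50.9 and 48.4 CPM in sh-LUC cells. In vehicle the 12 genes of these extremes were called in the same direction. In all, 26 genes with at least 5 CPM in sh-IGFBP6 had no count in sh-LUC, and 46 stood the other way round.

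Among genes expressed by both lines, at 5 CPM or more in each, MMP1 was followed on the higher side by CXCL8, TFPI2 and CD163L1. TFPI2, an inhibitor of serine proteases in the matrix, had 284, 292 and 303 CPM in the sh-IGFBP6 DHA libraries, against 10.4, 9.44 and 11.5 CPM in the sh-LUC DHA libraries. TNFAIP3, which edits ubiquitin chains and restrains NF-kB, had 94.7, 90.8 and 80.8 CPM in the sh-IGFBP6 DHA libraries, against 4.46, 6.91 and 5.97 CPM in the sh-LUC DHA libraries. KYNU, an enzyme of tryptophan breakdown, had 94.4, 89.2 and 86.6 CPM in sh-IGFBP6 cells under DHA and 6.77, 8.17 and 6.65 CPM in sh-LUC cells under DHA. In each, the lowest sh-IGFBP6 library exceeded the highest sh-LUC library several times over. SSX1, a cancer-testis antigen, differed alike in both conditions, with a log2 fold change of 3.64 under DHA and 3.68 in vehicle. On the lower side, THBS1 (thrombospondin 1, a matrix protein) had 232, 211 and 222 CPM in the sh-IGFBP6 DHA libraries, against 6465, 5991 and 6989.9 CPM in the sh-LUC DHA libraries (log2 fold change -4.87, SE 0.08, adjusted p = 8.8e-86). LAMA5, a laminin chain of basement membranes, had 88.4, 99.6 and 112 CPM in the sh-IGFBP6 DHA libraries, against 2140.5, 2048 and 1783 CPM in the sh-LUC DHA libraries. TNS3, a tensin that links integrins to actin, had 12.8, 9.26 and 5.74 CPM in sh-IGFBP6 cells under DHA and 409.6, 403 and 419.6 CPM in sh-LUC cells under DHA. All of these were several times lower in every sh-IGFBP6 library than in any sh-LUC library, and so were EFEMP1, NXN, ATP2B4, VIPR1 and SERINC2, with log2 fold changes of -5.00 to -4.02.

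The line difference under DHA largely followed the one in vehicle, where 9810 genes (64.6%) were called, 4935 (32.5%) higher and 4875 (32.1%) lower in sh-IGFBP6. Across 10231 genes with 5 CPM or more in all 4 groups, the log2 fold changes of the 2 conditions had a Pearson r of 0.868, a description over genes, which are not independent replicates. Of 8250 genes called in both conditions, 7959 (96.5%) had the same sign. The remaining 291 were 160 genes higher under DHA and lower in vehicle, and 131 the other way round. The difference between the 2 line differences was tested in the same fit and called at 3126 genes (20.6%), 1583 (10.4%) with a more positive and 1543 (10.2%) with a more negative line difference under DHA. Scaling by library size alone called 1055 genes in this test, 281 and 774, and moved the median over all genes to -0.14. Under that scaling fewer members of most lists below were called, and more of the mitochondrially encoded list. Those counts are given beside the TMM counts for some lists only, and where none is given the count may have moved as well. DHA against vehicle was called at 5202 genes (34.2%) in sh-IGFBP6 cells, 2644 (17.4%) higher and 2558 (16.8%) lower. In sh-LUC cells it was called at 2546 (16.8%), 1084 (7.14%) higher and 1462 (9.63%) lower.

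**Figure D2:**
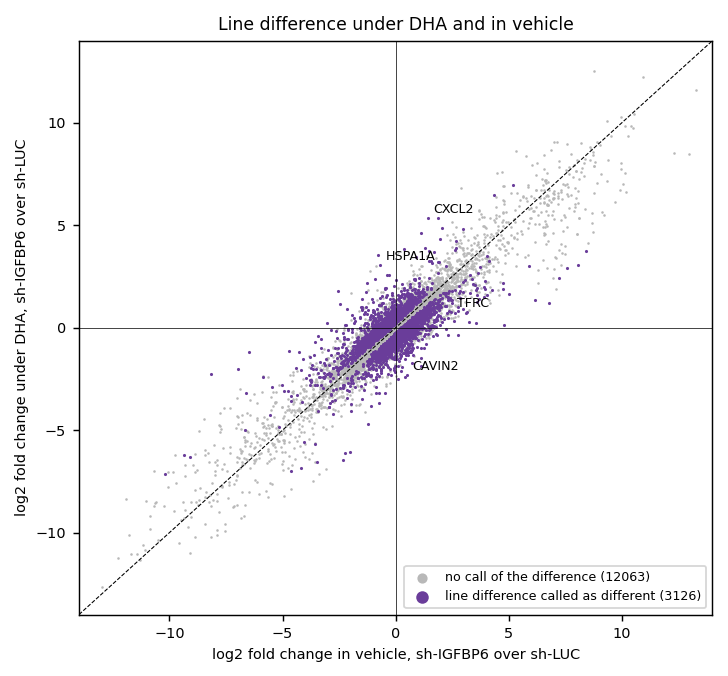
Each point is a tested gene, by its log2 fold change, sh-IGFBP6 over sh-LUC, in vehicle (horizontal) and under DHA (vertical), with a dashed line where the 2 are equal. Purple points (3126) are genes whose line difference under DHA was called as different from that in vehicle, such as CXCL2 and HSPA1A above the line and CAVIN2 and TFRC below it.

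In the ferroptosis list, cystine import and PTGS2 were higher and GPX4 was lower in sh-IGFBP6 cells under DHA. Of 28 members tested, 13 were higher and 9 lower (9 and 6 with library size scaling). The median log2 fold change was 0.08 against 0.01 for all tested genes. SLC7A11, the cystine-importing subunit, had 706, 708 and 653 CPM in the sh-IGFBP6 DHA libraries, against 248, 278 and 266 CPM in the sh-LUC DHA libraries (log2 fold change 1.38, SE 0.06, adjusted p = 1.2e-41). Its partner subunit SLC3A2 had 514, 472 and 514 CPM in the sh-IGFBP6 DHA libraries, against 261, 235 and 245 CPM in the sh-LUC DHA libraries (log2 fold change 1.02, SE 0.05, adjusted p = 1.3e-35). Neither gene's groups overlapped, but the lines compared differently in vehicle: the SLC7A11 difference under DHA minus that in vehicle was -0.56 (SE 0.09, adjusted p = 1.3e-06), and that of SLC3A2 was 0.90 (SE 0.08, adjusted p = 1.3e-16). Neither of these changes in the line difference was called with library size scaling. PTGS2, cyclooxygenase 2, a transcript often followed in ferroptosis, had 244, 253 and 219.8 CPM in the sh-IGFBP6 DHA libraries, against 20.5, 21.5 and 23.2 CPM in the sh-LUC DHA libraries (log2 fold change 3.46, SE 0.08, adjusted p = 1.9e-71). Every sh-IGFBP6 library stood far above every sh-LUC library, and the gap was wider than in vehicle by 2.55 (SE 0.16, adjusted p = 6.1e-27). GPX4 had 70.5, 78.1 and 88.3 CPM in the sh-IGFBP6 DHA libraries, against 133, 122 and 126 CPM in the sh-LUC DHA libraries (log2 fold change -0.68, SE 0.07, adjusted p = 3.0e-16). AIFM2, which regenerates reduced coenzyme Q at membranes, had 76.4, 77.8 and 81.3 CPM in sh-IGFBP6 cells under DHA and 44.7, 44.7 and 44.4 CPM in sh-LUC cells under DHA (log2 fold change 0.82, SE 0.08, adjusted p = 1.6e-17). ACSL4, which activates long polyunsaturated fatty acids for membrane lipids, was lower (log2 fold change -0.37, SE 0.07, adjusted p = 3.6e-07), a call lost with library size scaling. LPCAT3, which esterifies them, was not called (log2 fold change -0.28, SE 0.17, adjusted p = 0.12). PRNP, the prion protein, was lower (log2 fold change -1.07, SE 0.06, adjusted p = 2.8e-36). CHAC1, which degrades glutathione, had 2.39, 3.62 and 2.00 CPM in sh-IGFBP6 cells under DHA and 25.1, 23.8 and 17.1 CPM in sh-LUC cells under DHA (log2 fold change -2.93, SE 0.40, adjusted p = 1.5e-05), lower in each sh-IGFBP6 library.

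Heme oxygenase 1 and both ferritin chains were higher in sh-IGFBP6 cells, within a list whose shares of higher and lower members were 37.5% and 25%, beside 35.1% and 34.8% of all tested genes. The iron and heme list had 9 members higher and 6 lower of 24, and 7 and 3 with library size scaling. HMOX1, heme oxygenase 1, which frees iron from heme (chr22:35380361-35394214, plus strand), had 462, 479 and 461 CPM in the sh-IGFBP6 DHA libraries, against 31.4, 30.2 and 36.9 CPM in the sh-LUC DHA libraries (log2 fold change 3.83, SE 0.11, adjusted p = 3.9e-16). In vehicle it had 4.79, 6.90 and 5.87 CPM in sh-IGFBP6 vehicle libraries and 4.22, 5.68 and 4.29 CPM in sh-LUC vehicle libraries, and the line difference there was not called (log2 fold change 0.35, SE 0.38, adjusted p = 0.45). The HMOX1 difference under DHA was larger by 3.49 (SE 0.46, adjusted p = 1.9e-05), and both lines were higher under DHA than in vehicle, by 6.28 in sh-IGFBP6 and 2.79 in sh-LUC on the log2 scale. FTH1, the heavy ferritin chain, had 1024, 1046 and 1052 CPM in the sh-IGFBP6 DHA libraries, against 383, 342 and 312 CPM in the sh-LUC DHA libraries (log2 fold change 1.59, SE 0.14, adjusted p = 2.2e-07). FTL, the light chain, had 3664, 3726 and 3817 CPM in the sh-IGFBP6 DHA libraries, against 1658, 1555 and 1641 CPM in the sh-LUC DHA libraries (log2 fold change 1.21, SE 0.07, adjusted p = 5.6e-35). Both ferritin genes were higher in every sh-IGFBP6 library, with the reserve that processed copies elsewhere in the genome can take some of their reads. TFRC, the transferrin receptor that takes iron in, had 738, 784 and 726 CPM in the sh-IGFBP6 DHA libraries, against 426, 424 and 488 CPM in the sh-LUC DHA libraries (log2 fold change 0.75, SE 0.05, adjusted p = 8.4e-26). In vehicle TFRC had 565, 564 and 500.2 CPM in sh-IGFBP6 vehicle libraries and 100.3, 90.3 and 104 CPM in sh-LUC vehicle libraries. Its line difference under DHA minus that in vehicle was -1.71 (SE 0.08, adjusted p = 5.6e-37), and the level in sh-LUC was higher under DHA than in vehicle by 2.18 on the log2 scale, against 0.47 in sh-IGFBP6. FBXL5, the iron-sensing subunit that marks IRP2 for breakdown, was lower (log2 fold change -0.84, SE 0.09, adjusted p = 5.3e-16). SLC40A1, the iron exporter, and NCOA4, the ferritin autophagy receptor, overlapped between the lines and were not called.

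NRF2 target genes, which respond to electrophiles and oxidants, stood higher in sh-IGFBP6 cells under DHA in most cases. Of 23 tested, 19 were higher and 4 lower (16 and 4 with library size scaling), with a median log2 fold change of 0.97. In vehicle 11 were higher and 6 lower, with a median of 0.17. The line difference was more positive under DHA at 15 genes and more negative at 1, and with library size scaling at 9 and 0. TXNRD1, thioredoxin reductase 1, had 1941, 2018 and 1925 CPM in the sh-IGFBP6 DHA libraries, against 715, 666 and 715 CPM in the sh-LUC DHA libraries (log2 fold change 1.49, SE 0.06, adjusted p = 7.3e-47). GCLC, the catalytic subunit of the enzyme that starts glutathione synthesis, had 146, 155 and 149.9 CPM in the sh-IGFBP6 DHA libraries, against 46.5, 36.5 and 44.5 CPM in the sh-LUC DHA libraries (log2 fold change 1.84, SE 0.08, adjusted p = 1.2e-42). GCLM, its modifier subunit, had 339, 328 and 288 CPM in the sh-IGFBP6 DHA libraries, against 218, 203 and 227 CPM in the sh-LUC DHA libraries. For all 3 the groups were apart, and for GCLM the order of the lines was the opposite of that in vehicle, where it had 55.6 ± 9.70 CPM in sh-IGFBP6 cells and 111 ± 11.7 CPM in sh-LUC cells in vehicle (SD, n = 3 each). NFE2L2, which encodes NRF2, was higher (log2 fold change 0.53, SE 0.07, adjusted p = 2.6e-12), and KEAP1, which targets NRF2 for breakdown, was not called (log2 fold change 0.03, SE 0.08, adjusted p = 0.72). The exceptions were large. NQO1, a quinone reductase, had 219.8, 213 and 218 CPM in the sh-IGFBP6 DHA libraries, against 742, 655 and 824 CPM in the sh-LUC DHA libraries (log2 fold change -1.77, SE 0.06, adjusted p = 1.4e-34). ABCC3, an exporter of conjugates, had 52.6, 48.6 and 51.6 CPM in the sh-IGFBP6 DHA libraries, against 256, 251 and 237 CPM in the sh-LUC DHA libraries (log2 fold change -2.29, SE 0.07, adjusted p = 7.0e-60). In the wider list of glutathione, thioredoxin and peroxide enzymes, 15 were higher and 12 lower of 30, and 10 and 9 with library size scaling. GSR, glutathione reductase, and SOD2, the mitochondrial superoxide dismutase, were among the higher ones, at 1.18 and 1.13 on the log2 scale, and PRDX2 and GPX8, peroxide-reducing enzymes, among the lower ones, at -1.25 and -1.30.

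**Figure D3:**
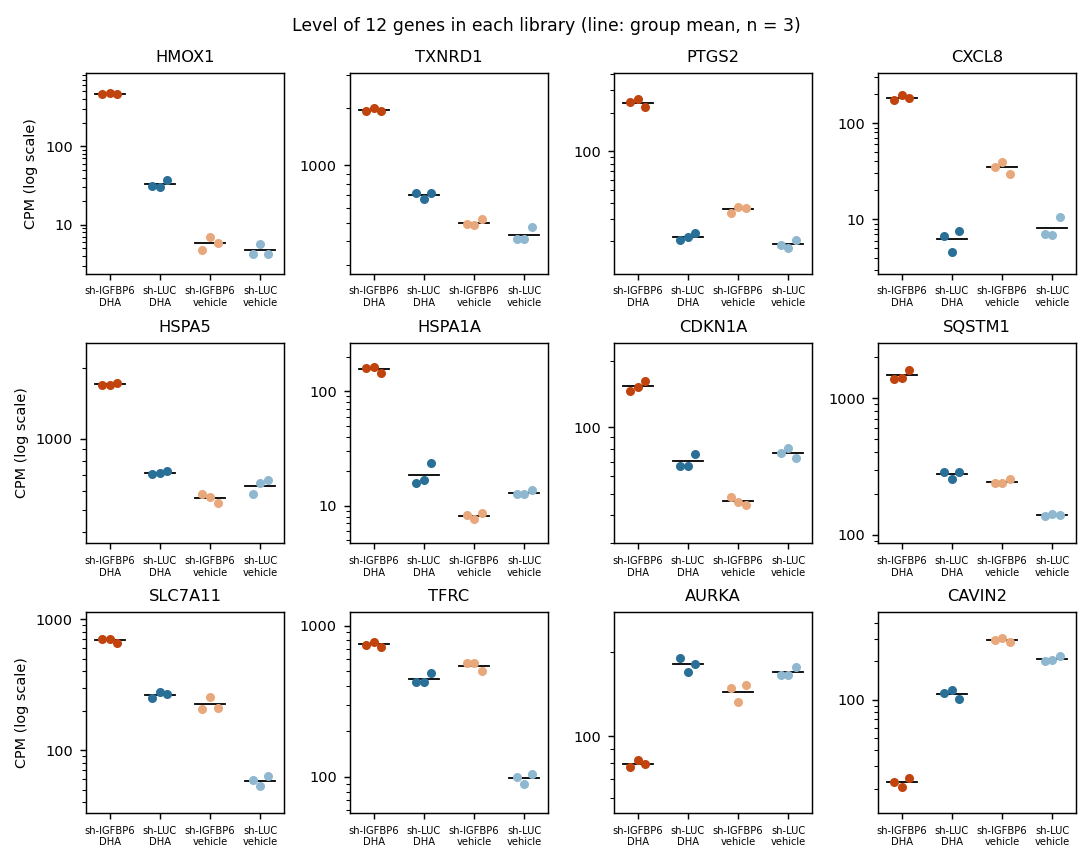
Each panel shows 1 gene, with its CPM (log scale) in the 3 libraries of sh-IGFBP6 DHA, sh-LUC DHA, sh-IGFBP6 vehicle and sh-LUC vehicle, from left to right, and a line at the group mean. The lines stood farther apart under DHA than in vehicle for HMOX1, TXNRD1 and HSPA5, AURKA and CAVIN2 were lowest in sh-IGFBP6 DHA, and TFRC was lowest in sh-LUC vehicle.

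Genes of the integrated stress response, which follow ATF4 when translation is throttled, were split. 11 were higher and 9 lower of 24, and 9 had a more negative line difference under DHA than in vehicle against 5 with a more positive one (9 and 1 with library size scaling). In vehicle 14 were higher and 7 lower, with a median log2 fold change of 0.67, against 0.11 under DHA. DHA against vehicle was called higher at 11 and lower at 2 in sh-IGFBP6 cells. In sh-LUC cells 18 were higher and 1 was lower. DDIT3, the stress factor CHOP, had 47.8, 53.7 and 52.1 CPM in the sh-IGFBP6 DHA libraries, against 11.2, 8.98 and 9.36 CPM in the sh-LUC DHA libraries (log2 fold change 2.40, SE 0.12, adjusted p = 1.4e-36). PPP1R15A, which brings a phosphatase to eIF2 alpha, had 423, 431 and 440.3 CPM in the sh-IGFBP6 DHA libraries, against 137, 122 and 137 CPM in the sh-LUC DHA libraries (log2 fold change 1.71, SE 0.06, adjusted p = 4.6e-49). GDF15, a stress hormone, ran the other way, with 17.0, 15.2 and 21.5 CPM in the sh-IGFBP6 DHA libraries, against 40.8, 51.2 and 42.9 CPM in the sh-LUC DHA libraries (log2 fold change -1.38, SE 0.11, adjusted p = 1.1e-21). VLDLR, a lipoprotein receptor in the same list, was lower too (log2 fold change -1.76, SE 0.15, adjusted p = 4.2e-21). ATF4 differed little (log2 fold change 0.36, SE 0.06, adjusted p = 9.0e-08), and that call was lost with library size scaling. Of 17 amino acid transporters 9 were higher and 6 lower, with 5 and 5 under library size scaling. SLC1A4, a carrier of small neutral amino acids, had 8.66, 7.52 and 6.24 CPM in sh-IGFBP6 cells under DHA and 56.3, 59.3 and 52.0 CPM in sh-LUC cells under DHA (log2 fold change -2.91, SE 0.13, adjusted p = 3.0e-44), and SLC6A9, a glycine carrier, was lower as well (log2 fold change -2.42, SE 0.13, adjusted p = 3.6e-35).

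Genes of cholesterol synthesis and uptake were mostly higher in sh-IGFBP6 cells, 16 higher and 6 lower of 25 (median 0.44), much as in vehicle (15 and 6). Both lines had lower levels of this list under DHA than in vehicle, 19 of 25 genes in sh-IGFBP6 and 21 in sh-LUC, with none higher. HMGCS1, which makes the precursor of mevalonate, had 134, 143 and 128 CPM in the sh-IGFBP6 DHA libraries, against 59.7, 59.1 and 65.3 CPM in the sh-LUC DHA libraries (log2 fold change 1.14, SE 0.07, adjusted p = 1.8e-30). INSIG1, which holds the sterol sensor in the endoplasmic reticulum, was higher (log2 fold change 0.80, SE 0.08, adjusted p = 5.2e-17), and STARD4, a carrier of cholesterol between membranes, likewise (log2 fold change 1.33, SE 0.08, adjusted p = 7.2e-30). LSS, lanosterol synthase, was lower (log2 fold change -0.91, SE 0.07, adjusted p = 5.2e-25).

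Fatty acid synthesis had 7 members higher and 8 lower of 17, and 4 and 7 with library size scaling. The desaturases of polyunsaturated fatty acids FADS1 and FADS2 were higher by 0.55 and 0.50 on the log2 scale, and ELOVL5, which elongates their products, by 0.62. FASN, the fatty acid synthase, and SCD, which makes monounsaturated fatty acids, were higher by 0.36 and 0.25, but FASN, SCD and FADS2 lost their calls with library size scaling. ELOVL7 and ACACB were lower, at -3.15 and -2.85. SREBF1, which encodes the regulator SREBP1, was lower (log2 fold change -0.49, SE 0.07, adjusted p = 3.1e-09). Targets of PPAR, the nuclear receptors that bind fatty acids, were lower in 13 of 27 cases and higher in 3. With library size scaling 11 were lower and 1 higher, and 1 was also the higher count with DESeq2, without the filter on low counts and without sh-IGFBP6 DHA replicate 2, where 10 were lower. ANGPTL4, an inhibitor of lipoprotein lipase, had 76.1, 62.2 and 74.1 CPM in the sh-IGFBP6 DHA libraries, against 165, 158 and 164 CPM in the sh-LUC DHA libraries (log2 fold change -1.22, SE 0.08, adjusted p = 1.5e-26). Its level was higher under DHA than in vehicle by 4.52 in sh-IGFBP6 and by 3.13 in sh-LUC on the log2 scale. PDK4, which shuts pyruvate oxidation, had 5.37, 8.39 and 7.48 CPM in sh-IGFBP6 cells under DHA and 39.3, 45.2 and 42.5 CPM in sh-LUC cells under DHA (log2 fold change -2.52, SE 0.14, adjusted p = 3.5e-35). CPT1A, the entry step of mitochondrial fatty acid oxidation, had 138, 134 and 130.5 CPM in sh-IGFBP6 cells under DHA and 255, 223 and 249 CPM in sh-LUC cells under DHA (log2 fold change -0.85, SE 0.06, adjusted p = 1.3e-25). These 3 genes were lower in sh-IGFBP6 in every library, and HADHB, of the same pathway, was higher by 0.31, a call lost with library size scaling.

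Lipid storage genes were lower more often than higher, 14 against 7 of 26. PLIN2, which coats lipid droplets, was an exception, with 229.6, 227 and 235 CPM in the sh-IGFBP6 DHA libraries, against 152, 139 and 151 CPM in the sh-LUC DHA libraries (log2 fold change 0.65, SE 0.06, adjusted p = 2.3e-18). LPIN1, a phosphatidate phosphatase, was higher too (log2 fold change 1.04, SE 0.07, adjusted p = 2.3e-26). LPCAT2 and ACSL1, which attach and activate fatty acids, had log2 fold changes of -3.21 and -2.92, and PNPLA3 and FITM2, proteins of the lipid droplet, -3.44 and -1.99. Of 12 liver X receptor targets, 5 were higher and 5 lower, against 3 and 5 both with library size scaling and without the filter on low counts. The cholesterol exporter ABCA1 had 2.99, 2.60 and 1.25 CPM in sh-IGFBP6 cells under DHA and 20.8, 29.7 and 19.8 CPM in sh-LUC cells under DHA, and APOE, its lipid acceptor, 55.8, 53.8 and 72.6 CPM in sh-IGFBP6 cells under DHA and 0.165, 1.38 and 1.49 CPM in sh-LUC cells under DHA. Beside PTGS2, the prostaglandin list held PTGES, the inducible prostaglandin E synthase, with 28.1, 27.6 and 36.9 CPM in the sh-IGFBP6 DHA libraries, against 155, 134 and 134 CPM in the sh-LUC DHA libraries (log2 fold change -2.21, SE 0.08, adjusted p = 5.6e-50), so that the synthase was lower where the cyclooxygenase was higher. SLCO2A1, the prostaglandin uptake carrier, had 1 count in sh-IGFBP6 and a mean of 30.8 CPM in sh-LUC.

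Cytokines, chemokines and NF-kB targets were higher in sh-IGFBP6 cells under DHA in 21 of 25 cases and lower in 3, with a median log2 fold change of 1.66. The lower count was 1 with DESeq2 and without either sh-LUC DHA replicate 3 or sh-IGFBP6 DHA replicate 3. In vehicle the split was 12 and 9. Set against vehicle, DHA gave a more positive line difference at 15 of them (12 with library size scaling) and more negative at none. DHA against vehicle was called higher at 19 in sh-IGFBP6 cells, whereas in sh-LUC cells 1 was higher and 7 were lower. The promoters of the neutrophil-attracting chemokines CXCL1, CXCL2 and CXCL3 are shown because these near copies carry the same match, and those of NFKBIA and TNFAIP3, inhibitors of NF-kB, because the match lies on the other strand there. The stretches are from RefSeq (GRCh38.p14), read 5′ to 3′ on the gene's strand. Capitals mark 1 match each to the NF-kB pattern, GGG and TTTCC with any 2 bases between them, or its reverse complement.
CXCL1, plus strand, chr4:73869294-73869343: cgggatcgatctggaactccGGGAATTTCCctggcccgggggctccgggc
CXCL2, minus strand, chr4:74099244-74099293: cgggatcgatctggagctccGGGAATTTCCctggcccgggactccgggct
CXCL3, minus strand, chr4:74038739-74038788: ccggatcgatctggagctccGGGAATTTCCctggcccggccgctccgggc
NFKBIA, minus strand, chr14:35404801-35404850: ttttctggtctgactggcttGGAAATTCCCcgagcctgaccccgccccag
TNFAIP3, plus strand, chr6:137867172-137867221: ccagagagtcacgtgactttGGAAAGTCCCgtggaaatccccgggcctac
The pattern, sought on both strands, lay within 250 bases before the start in 10 of the 19 tested members with a promoter sequence, and in 1.73% of 27305 promoters. A match is a description of letters and not of binding. The list itself names NF-kB targets, so its share of matches is no independent result. For NRF2 targets the pattern TGAC and GC, with any 3 bases between them, lay in 4 of 18 promoters and in 11.0% of all. For cholesterol genes the sterol pattern, TCAC and CCAC with any 1 base between them, lay in 1 of 18 and in 0.875%.

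CXCL2 had 29.3, 33.6 and 32.4 CPM in the sh-IGFBP6 DHA libraries, against 0.660, 0.806 and 0.814 CPM in the sh-LUC DHA libraries. CXCL3 had 32.5, 32.7 and 26.4 CPM in the sh-IGFBP6 DHA libraries, against 0.495, 0.921 and 0.679 CPM in the sh-LUC DHA libraries. CXCL1, named here for its promoter after its values were seen, had 15.8 ± 1.05 CPM in sh-IGFBP6 cells and 1.07 ± 0.258 CPM in sh-LUC cells under DHA. The line differences of CXCL2 and CXCL3 exceeded those in vehicle by 3.92 (SE 0.64, adjusted p = 4.7e-07) and 3.50 (SE 0.70, adjusted p = 4.1e-05). Because the 3 CXCL genes are near copies of one another, the split of reads between them is uncertain. CXCL8, interleukin 8, had 174, 195 and 180.1 CPM in the sh-IGFBP6 DHA libraries, against 6.77, 4.61 and 7.60 CPM in the sh-LUC DHA libraries (log2 fold change 4.89, SE 0.10, adjusted p = 1.7e-76). IL1B, interleukin 1 beta, had 239, 251 and 272 CPM in the sh-IGFBP6 DHA libraries, against 1.82, 1.96 and 2.17 CPM in the sh-LUC DHA libraries (log2 fold change 6.98, SE 0.12, adjusted p = 1.4e-75), and the monocyte attractant CCL2 had 121, 117 and 111 CPM in the sh-IGFBP6 DHA libraries, against 0.330, 0.576 and 0.407 CPM in the sh-LUC DHA libraries. All of these were higher in each sh-IGFBP6 library than in any sh-LUC library. CSF2, the granulocyte-macrophage factor, had 4.18, 5.06 and 6.49 CPM in the sh-IGFBP6 DHA libraries, against 2.31, 1.38 and 3.39 CPM in the sh-LUC DHA libraries (log2 fold change 1.18, SE 0.28, adjusted p = 1.2e-04) and stood the other way in vehicle, with 0.599, 0.192 and 0.245 CPM in sh-IGFBP6 vehicle libraries and 2.11, 2.09 and 1.43 CPM in sh-LUC vehicle libraries. CSF1, the macrophage factor, was the clearest exception, with 56.4, 48.9 and 58.9 CPM in the sh-IGFBP6 DHA libraries, against 479.8, 426 and 458 CPM in the sh-LUC DHA libraries (log2 fold change -3.07, SE 0.07, adjusted p = 6.0e-74). IL6 was lower as well (log2 fold change -0.72, SE 0.31, adjusted p = 0.03), but that call was lost with DESeq2 (adjusted p = 0.067) and in edgeR without sh-LUC DHA replicate 3 (0.13), sh-IGFBP6 DHA replicate 2 (0.053) or sh-IGFBP6 DHA replicate 3 (0.12).

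Interferon-stimulated genes did not move as a block, 10 higher and 13 lower of 30, and 6 and 13 with library size scaling. IFI44L had 42.4, 48.3 and 37.7 CPM in the sh-IGFBP6 DHA libraries, against 3.47, 5.76 and 3.66 CPM in the sh-LUC DHA libraries (log2 fold change 3.29, SE 0.14, adjusted p = 4.1e-44). MX1, an antiviral GTPase, had 0.896, 1.30 and 0.249 CPM in the sh-IGFBP6 DHA libraries, against 28.9, 25.8 and 22.8 CPM in the sh-LUC DHA libraries (log2 fold change -4.78, SE 0.24, adjusted p = 2.1e-38). OAS3 and the transcription factor IRF1 were lower too, at -2.72 and -2.19 on the log2 scale. Antigen presentation by HLA class I was lower in 17 of 20 cases and higher in 2 (1 with library size scaling, with DESeq2 or without the filter on low counts), with a median of -1.11. HLA-B had 33.4, 29.5 and 34.7 CPM in the sh-IGFBP6 DHA libraries, against 222, 226 and 225 CPM in the sh-LUC DHA libraries (log2 fold change -2.81, SE 0.07, adjusted p = 1.3e-65). Reads of the classical HLA genes may be shared between them. TAPBP, the chaperone that edits their peptides, had 185, 183 and 186 CPM in sh-IGFBP6 cells under DHA and 553, 537 and 566 CPM in sh-LUC cells under DHA. In vehicle 17 of the 20 were lower, and 9 had a more positive line difference under DHA than in vehicle, a count of 0 with library size scaling. HLA-E, which is recognised by natural killer cells, was higher (log2 fold change 0.27, SE 0.06, adjusted p = 2.4e-05), a call lost under that scaling.

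**Figure D4:**
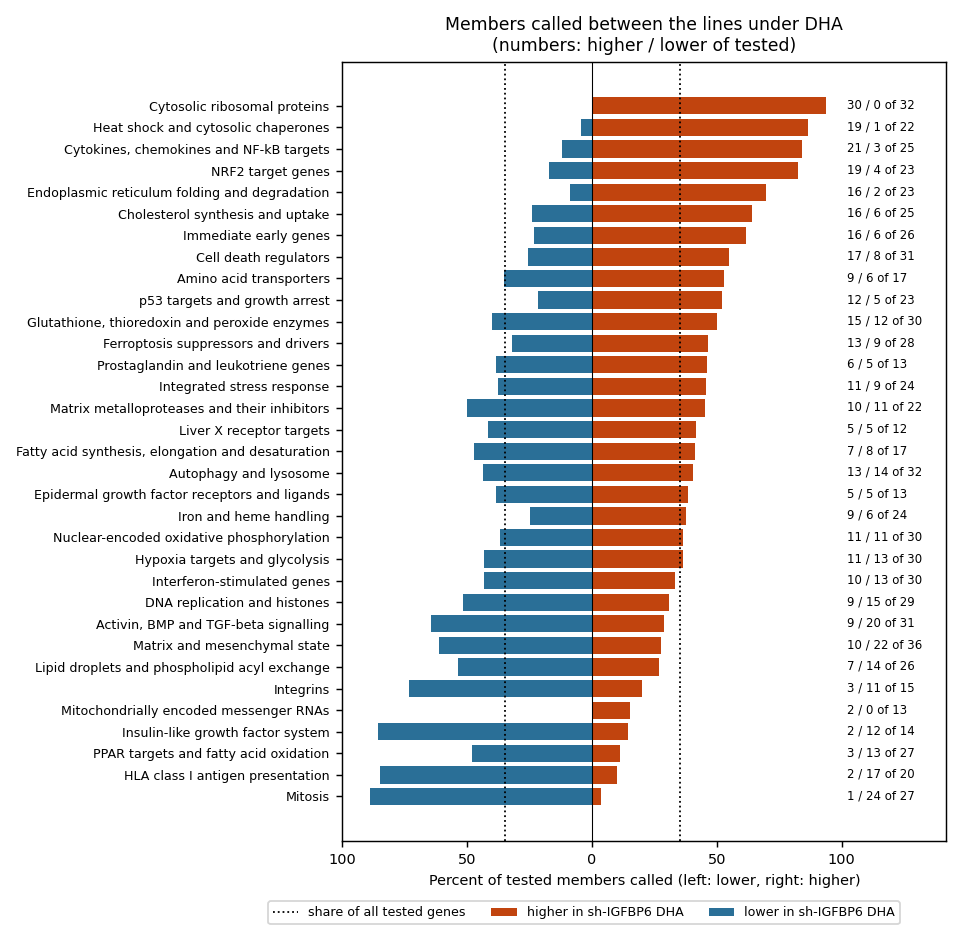
For each list, bars give the percent of its tested members called higher (orange, right) and lower (blue, left) in sh-IGFBP6 DHA than in sh-LUC DHA, and the numbers give the counts, with lists ordered by the share higher. Dotted lines mark the shares of all tested genes, 35.1% higher and 34.8% lower, and ribosomal proteins stand at the top with 30 of 32 higher while mitosis stands at the bottom with 24 of 27 lower.

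The matrix and its receptors were lower in sh-IGFBP6 cells. Of 36 matrix and mesenchymal genes 22 were lower and 10 higher (median -1.21), much as in vehicle, where 22 were lower and 11 higher (median -1.26). COL5A1, a fibrillar collagen chain, had 1.19, 1.88 and 1.25 CPM in the sh-IGFBP6 DHA libraries, against 527, 523 and 525 CPM in the sh-LUC DHA libraries (log2 fold change -8.39, SE 0.12, adjusted p = 3.4e-96). COL18A1, the source of endostatin, and CDH11, a mesenchymal cadherin, had means of 0.263 and 0.507 CPM in sh-IGFBP6, against 336 and 240.1 CPM in sh-LUC. LAMA4, a laminin chain of vessel walls, ran against them, with 94.1, 106 and 112 CPM in the sh-IGFBP6 DHA libraries, against 1.65, 0.806 and 1.22 CPM in the sh-LUC DHA libraries, and so did LOX, which crosslinks collagen (log2 fold change 1.87, SE 0.07, adjusted p = 2.4e-50). Of 15 integrin genes 11 were lower and 3 higher, the higher count being 1 with library size scaling. In vehicle 10 integrin genes were lower and 2 higher. ITGA3, a laminin receptor chain, had 671, 674 and 739 CPM in the sh-IGFBP6 DHA libraries, against 3121, 3082 and 2959 CPM in the sh-LUC DHA libraries (log2 fold change -2.14, SE 0.06, adjusted p = 8.3e-60), and ITGB4, an integrin chain of hemidesmosomes, 12.8, 15.8 and 15.2 CPM in the sh-IGFBP6 DHA libraries, against 191, 182 and 181 CPM in the sh-LUC DHA libraries. Both were lower in every sh-IGFBP6 library. ITGA2, a collagen receptor chain, was higher (log2 fold change 0.49, SE 0.05, adjusted p = 8.8e-14), but not with library size scaling. The metalloprotease list was even, 10 higher and 11 lower of 22. Beside MMP1 and MMP3, ADAMTS1, which cleaves proteoglycans, had 295, 288 and 300.3 CPM in the sh-IGFBP6 DHA libraries, against 30.7, 27.2 and 35.0 CPM in the sh-LUC DHA libraries (log2 fold change 3.25, SE 0.07, adjusted p = 6.9e-72). TIMP3, an inhibitor bound to the matrix, had 0.597, 0.868 and 0.249 CPM in the sh-IGFBP6 DHA libraries, against 996, 915 and 967 CPM in the sh-LUC DHA libraries (log2 fold change -10.52, SE 0.15, adjusted p = 2.9e-50).

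Of the insulin-like growth factor system 12 of 14 members tested were lower and 2 higher, IGFBP6 being 1 of the lower ones. In vehicle 8 members were lower and 1 higher. IGFBP4, another binding protein, had 373, 384 and 455 CPM in the sh-IGFBP6 DHA libraries, against 3329.5, 2867 and 3139 CPM in the sh-LUC DHA libraries (log2 fold change -2.95, SE 0.08, adjusted p = 2.9e-52). IGFBP7, a related secreted protein, had 31.1, 32.4 and 39.4 CPM in the sh-IGFBP6 DHA libraries, against 303, 267 and 283 CPM in the sh-LUC DHA libraries. INSR, the insulin receptor, had 6.27, 7.23 and 6.49 CPM in sh-IGFBP6 cells under DHA and 89.5, 82.0 and 87.7 CPM in sh-LUC cells under DHA. Each of these was lower in every sh-IGFBP6 library. STC1, stanniocalcin 1, was higher (log2 fold change 3.02, SE 0.09, adjusted p = 5.6e-63), as was IGF2R, the receptor that clears IGF2, by 0.28, a call lost with library size scaling. Activin, BMP and TGF-beta genes were lower in 20 of 31 cases and higher in 9, and in vehicle lower in 21 and higher in 3. TGFB2 had 1.49, 2.60 and 2.00 CPM in the sh-IGFBP6 DHA libraries, against 147, 139 and 147 CPM in the sh-LUC DHA libraries (log2 fold change -6.04, SE 0.14, adjusted p = 4.3e-64). SMAD6, an inhibitor of BMP signals, had 1.49, 2.60 and 2.00 CPM in sh-IGFBP6 cells under DHA and 84.0, 70.8 and 85.8 CPM in sh-LUC cells under DHA, and BMP4 was lower as well (log2 fold change -3.30, SE 0.10, adjusted p = 8.4e-62). INHBA, the beta A subunit of activin, had 75.5, 85.5 and 67.8 CPM in the sh-IGFBP6 DHA libraries, against 30.5, 32.5 and 34.3 CPM in the sh-LUC DHA libraries (log2 fold change 1.25, SE 0.08, adjusted p = 1.7e-27) and stood the other way in vehicle, with 23.9, 26.4 and 22.5 CPM in sh-IGFBP6 vehicle libraries and 50.7, 42.7 and 51.9 CPM in sh-LUC vehicle libraries.

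Cell division genes were lower in sh-IGFBP6 cells under DHA. Of 27 mitosis genes 24 were lower and 1 higher, with a median log2 fold change of -0.69. In vehicle 9 were lower and 6 higher, with a median of -0.11. Compared with vehicle, the line difference was more negative at 26 of the 27 (19 with library size scaling) and more positive at none. DHA against vehicle was called lower at 26 genes in sh-IGFBP6 cells, and at 1 in sh-LUC cells, where 4 were higher. Whether fewer cells were dividing or each dividing cell held less of these transcripts cannot be told apart in bulk RNA. TOP2A, topoisomerase II alpha, had 343, 371 and 334 CPM in the sh-IGFBP6 DHA libraries, against 880.2, 861 and 879 CPM in the sh-LUC DHA libraries (log2 fold change -1.32, SE 0.05, adjusted p = 6.4e-46). AURKA, a spindle pole kinase, had 77.6, 81.9 and 79.1 CPM in the sh-IGFBP6 DHA libraries, against 189.8, 170.4 and 182 CPM in the sh-LUC DHA libraries (log2 fold change -1.18, SE 0.07, adjusted p = 3.0e-33). MKI67, the proliferation antigen Ki-67, had 534, 559 and 492 CPM in the sh-IGFBP6 DHA libraries, against 1014, 927 and 922 CPM in the sh-LUC DHA libraries (log2 fold change -0.85, SE 0.06, adjusted p = 7.2e-29). The sh-IGFBP6 libraries were below all sh-LUC libraries for each, and in vehicle the AURKA levels were 148, 132 and 152 CPM in sh-IGFBP6 vehicle libraries and 165, 166 and 177 CPM in sh-LUC vehicle libraries. CDC20, the exception, was higher by 0.18, its groups overlapped, and its call was lost with DESeq2 (adjusted p = 0.18), without sh-LUC DHA replicate 2 (0.096), without sh-IGFBP6 DHA replicate 3 (0.22), with library size scaling (0.57), with RLE factors (0.056) and without the filter on low counts (0.44). The promoters of MKI67 and TOP2A are shown for the cell cycle homology region TTTGAA, with capitals on 1 match in each.
MKI67, minus strand, chr10:128126445-128126490: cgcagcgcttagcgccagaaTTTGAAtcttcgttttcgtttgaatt
TOP2A, minus strand, chr17:40418065-40418110: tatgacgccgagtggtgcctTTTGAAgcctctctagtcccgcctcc
This pattern was found on either strand in 11 of 22 mitosis members with a promoter and in 13.6% of all promoters, and the CCAAT box in 17 of 22 and in 33.0%. The list was made of known cell division genes, so its shares of matches are no independent result either.

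DNA replication and histone genes followed in part, 15 lower and 9 higher of 29 under DHA, against 4 and 18 in vehicle, and library size scaling gave 10 lower and 4 higher under DHA. The line difference was more negative under DHA at 26 (9 with library size scaling). PCNA, the sliding clamp, had 91.1, 89.4 and 101 CPM in the sh-IGFBP6 DHA libraries, against 177, 167 and 178 CPM in the sh-LUC DHA libraries (log2 fold change -0.90, SE 0.07, adjusted p = 2.3e-25), and GINS1, of the replicative helicase, 19.7, 19.4 and 20.5 CPM in sh-IGFBP6 cells under DHA and 70.8, 67.8 and 71.1 CPM in sh-LUC cells under DHA. MCM3, of the same helicase, and FEN1, a flap nuclease, were higher, at 0.64 and 0.70. CDKN1A, the cyclin-dependent kinase inhibitor p21, had 145, 152 and 162 CPM in the sh-IGFBP6 DHA libraries, against 67.2, 67.0 and 76.1 CPM in the sh-LUC DHA libraries (log2 fold change 1.13, SE 0.07, adjusted p = 2.9e-31). Its vehicle levels ran the other way, 48.5, 46.0 and 44.5 CPM in sh-IGFBP6 vehicle libraries and 76.7, 80.4 and 72.7 CPM in sh-LUC vehicle libraries, and the line differences differed by 1.85 (SE 0.11, adjusted p = 7.0e-29). Among 23 p53 targets and growth arrest genes 12 were higher and 5 lower. SESN2 and GADD45A, stress-induced growth regulators, were higher (1.80 and 1.69), and PHLDA3, an inhibitor of AKT, was lower (log2 fold change -2.90, SE 0.21, adjusted p = 6.0e-26).

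Immediate early genes, which respond within minutes to growth factors and stress, were higher in 16 of 26 cases and lower in 6. In vehicle 9 were higher and 12 lower, and the line difference was more positive under DHA at 13 (9 with library size scaling). FOS had 63.3, 66.1 and 64.6 CPM in the sh-IGFBP6 DHA libraries, against 2.81, 4.03 and 2.58 CPM in the sh-LUC DHA libraries (log2 fold change 4.33, SE 0.14, adjusted p = 1.6e-44), and FOSB had 48.1, 41.5 and 39.2 CPM in sh-IGFBP6 cells under DHA and 2.48, 1.84 and 2.58 CPM in sh-LUC cells under DHA. DUSP5, a nuclear phosphatase of ERK, had 247, 254 and 267 CPM in sh-IGFBP6 cells under DHA and 83.2, 80.6 and 75.7 CPM in sh-LUC cells under DHA. For these 3 the sh-IGFBP6 libraries were all higher, and DUSP4, a related phosphatase, and FOSL2 were lower, at -1.31 and -0.73. EREG, a ligand of the EGF receptor, had 279.8, 297 and 256 CPM in the sh-IGFBP6 DHA libraries, against 27.4, 32.4 and 31.1 CPM in the sh-LUC DHA libraries (log2 fold change 3.19, SE 0.07, adjusted p = 7.4e-72), the receptor EGFR was higher (log2 fold change 0.86, SE 0.05, adjusted p = 1.4e-29), and the ligand TGFA was lower (log2 fold change -2.78, SE 0.09, adjusted p = 7.8e-55). Of 31 cell death regulators 17 were higher and 8 lower. BCL2A1, a survival protein, had 9.26, 11.9 and 9.98 CPM in sh-IGFBP6 and no count in sh-LUC, at least 79.0-fold higher. BCL2L1, which encodes the survival protein BCL-XL, had 61.2, 68.4 and 66.6 CPM in sh-IGFBP6 cells under DHA and 251, 228 and 228 CPM in sh-LUC cells under DHA (log2 fold change -1.84, SE 0.07, adjusted p = 2.1e-51). MCL1, of the same family, was higher (log2 fold change 0.73, SE 0.05, adjusted p = 5.4e-25), and CASP4, an inflammatory caspase, likewise (log2 fold change 2.03, SE 0.08, adjusted p = 1.5e-47).

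Chaperones were higher in sh-IGFBP6 cells under DHA, in the cytosol and in the endoplasmic reticulum. Of 22 heat shock genes 19 were higher and 1 lower (median 0.87), against 10 and 9 in vehicle. The line difference was more positive under DHA at 12 (5 with library size scaling) and more negative at none. HSPA1A, the inducible HSP70, had 160.0, 162 and 144 CPM in the sh-IGFBP6 DHA libraries, against 15.8, 16.8 and 23.5 CPM in the sh-LUC DHA libraries (log2 fold change 3.05, SE 0.10, adjusted p = 5.0e-36), and 8.38, 7.67 and 8.56 CPM in sh-IGFBP6 vehicle libraries and 12.7, 12.6 and 13.8 CPM in sh-LUC vehicle libraries. Its reads cannot be cleanly parted from those of HSPA1B, a near-identical neighbour. DNAJB1, its cochaperone, had 385, 386 and 404 CPM in the sh-IGFBP6 DHA libraries, against 214, 198 and 231 CPM in the sh-LUC DHA libraries (log2 fold change 0.87, SE 0.06, adjusted p = 2.2e-24) and 92.2, 78.4 and 79.8 CPM in sh-IGFBP6 vehicle libraries and 213, 191 and 179 CPM in sh-LUC vehicle libraries. For both genes the sh-IGFBP6 line was the higher under DHA and the lower in vehicle. The constitutive HSPA8 had 3445, 3470.1 and 3283 CPM in the sh-IGFBP6 DHA libraries, against 1189.5, 1023 and 1317 CPM in the sh-LUC DHA libraries (log2 fold change 1.53, SE 0.07, adjusted p = 4.0e-39), and HSP90AA1, the inducible HSP90, 3051, 3173 and 2996 CPM in the sh-IGFBP6 DHA libraries, against 1040.1, 1016 and 1124 CPM in the sh-LUC DHA libraries (log2 fold change 1.54, SE 0.07, adjusted p = 5.7e-43). CCT5, a subunit of the chaperonin for actin and tubulin, was as far apart in vehicle (1.02) as under DHA (1.03). HSPB8, a small heat shock protein, was lower (log2 fold change -1.56, SE 0.32, adjusted p = 1.0e-05).

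**Figure D5:**
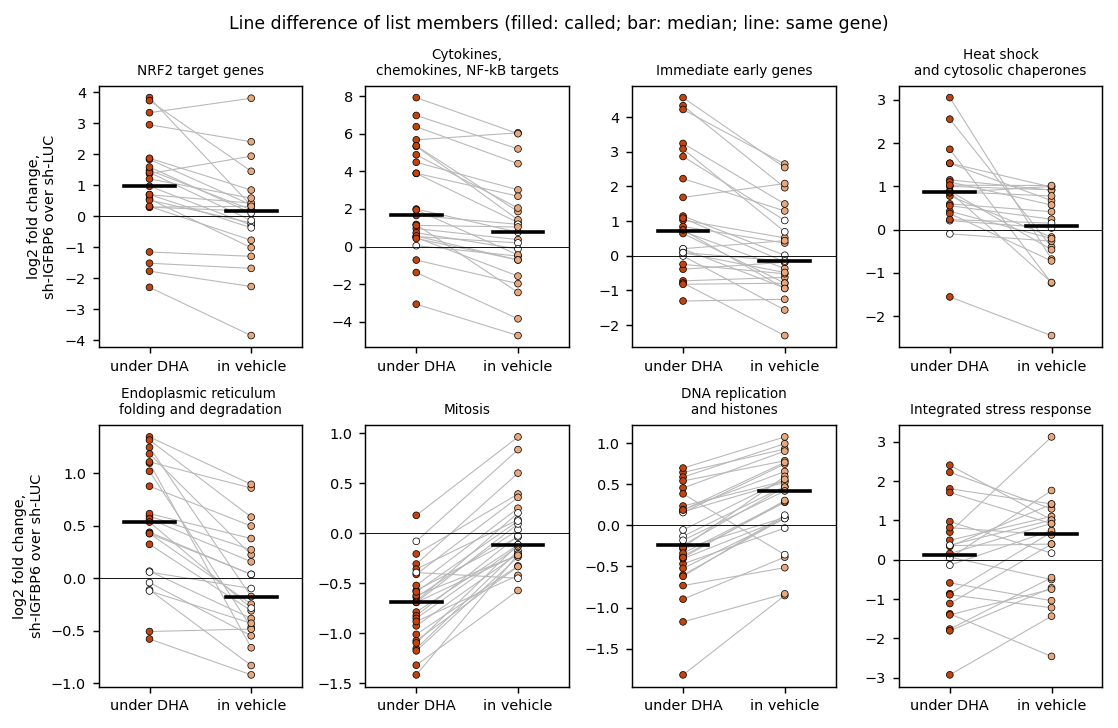
For 8 lists, each point is a tested member, by its log2 fold change, sh-IGFBP6 over sh-LUC, under DHA (left) and in vehicle (right), filled where called and joined for the same gene, with a bar at the median. Medians under DHA were 0.97 for NRF2 targets, 1.66 for cytokines and 0.53 for endoplasmic reticulum folding, all above their vehicle medians, and -0.69 for mitosis, below its vehicle median of -0.11.

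In the endoplasmic reticulum list 16 of 23 genes were higher and 2 lower under DHA, against 8 higher and 11 lower in vehicle. The line difference was more positive under DHA at 19 and more negative at none, a count that was 3 with library size scaling and 12 without the filter on low counts. The members that carry the endoplasmic reticulum stress element, CCAAT and CCACG with any 9 bases between them, on either strand within 250 bases before their start are shown, since this long pattern was rare elsewhere. It was found in 6 of 21 members with a promoter and in 0.0806% of all promoters, 22 in number, and each match also holds a CCAAT box. The list was made of known folding and stress genes of this compartment, so its share of matches is no independent result. All promoters here include those of genes that were not tested. Capitals mark the element or its reverse complement.
HSPA5, minus strand, chr9:125241371-125241429: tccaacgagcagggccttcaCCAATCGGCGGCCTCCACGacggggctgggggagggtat
HSP90B1, plus strand, chr12:103930196-103930254: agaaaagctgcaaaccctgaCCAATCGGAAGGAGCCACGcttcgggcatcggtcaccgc
HSP90B1, plus strand, chr12:103930301-103930359: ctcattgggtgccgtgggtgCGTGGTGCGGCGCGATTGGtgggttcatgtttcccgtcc
CANX, plus strand, chr5:179698758-179698816: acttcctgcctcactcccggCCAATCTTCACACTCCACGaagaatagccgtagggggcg
CALR, plus strand, chr19:12938364-12938422: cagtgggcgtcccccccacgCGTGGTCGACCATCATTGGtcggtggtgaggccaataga
CRELD2, plus strand, chr22:49918534-49918592: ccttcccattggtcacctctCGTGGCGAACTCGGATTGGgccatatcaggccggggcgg
XBP1, minus strand, chr22:28800583-28800641: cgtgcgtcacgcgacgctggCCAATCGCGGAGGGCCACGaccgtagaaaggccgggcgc
The 6 genes did not stand alike; CANX, CRELD2 and XBP1 were picked for the element after their values were seen. HSPA5, the chaperone BiP that binds unfolded proteins, had 1693, 1686 and 1720.2 CPM in the sh-IGFBP6 DHA libraries, against 708, 714 and 729 CPM in the sh-LUC DHA libraries (log2 fold change 1.24, SE 0.06, adjusted p = 2.9e-42). In vehicle it had 583, 563 and 533 CPM in sh-IGFBP6 vehicle libraries and 579.8, 648 and 667 CPM in sh-LUC vehicle libraries, and the line difference under DHA was larger by 1.42 (SE 0.08, adjusted p = 1.4e-31). HSP90B1, the HSP90 of this compartment, had 1658, 1802 and 1700.0 CPM in the sh-IGFBP6 DHA libraries, against 728, 772 and 773 CPM in the sh-LUC DHA libraries (log2 fold change 1.18, SE 0.06, adjusted p = 6.4e-38). CANX, the lectin chaperone calnexin, had 1952 ± 83.4 CPM in sh-IGFBP6 cells and 1276 ± 52.8 CPM in sh-LUC cells under DHA (log2 fold change 0.61, SE 0.06, adjusted p = 2.5e-16), and CRELD2, a small secreted helper, 27.4 ± 1.78 CPM in sh-IGFBP6 cells and 18.7 ± 1.74 CPM in sh-LUC cells under DHA (log2 fold change 0.53, SE 0.12, adjusted p = 2.5e-05). CALR, the soluble lectin chaperone calreticulin, was lower (log2 fold change -0.58, SE 0.06, adjusted p = 4.5e-17), and XBP1, a transcription factor of the unfolded protein response, was not called (log2 fold change -0.04, SE 0.07, adjusted p = 0.59). Of genes without the element, MANF, a secreted stress factor, was higher (log2 fold change 1.31, SE 0.07, adjusted p = 5.6e-35), as was ERN1, the sensor IRE1 (log2 fold change 1.34, SE 0.09, adjusted p = 6.1e-30), while the sensor ATF6 was lower (log2 fold change -0.51, SE 0.07, adjusted p = 3.6e-10).

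Autophagy and lysosome genes were split, 13 higher and 14 lower of 32. SQSTM1, the cargo receptor p62, had 1385, 1398 and 1601 CPM in the sh-IGFBP6 DHA libraries, against 289, 256 and 288 CPM in the sh-LUC DHA libraries (log2 fold change 2.40, SE 0.06, adjusted p = 6.5e-70), and CTSD, the lysosomal protease cathepsin D, 69.3, 70.6 and 83.3 CPM in the sh-IGFBP6 DHA libraries, against 747, 733 and 778 CPM in the sh-LUC DHA libraries (log2 fold change -3.34, SE 0.06, adjusted p = 6.2e-81). Neither pair of groups overlapped. A more positive line difference under DHA was called at 18 members, and at 5 with library size scaling. Hypoxia and glycolysis genes were split too, 11 higher and 13 lower of 30, and 6 and 11 with library size scaling. VEGFA, the vascular growth factor, had 83.0, 81.3 and 93.5 CPM in sh-IGFBP6 cells under DHA and 581, 592 and 526 CPM in sh-LUC cells under DHA (log2 fold change -2.73, SE 0.07, adjusted p = 1.2e-60). SLC16A3, a lactate exporter, had 47.8, 52.8 and 49.4 CPM in sh-IGFBP6 cells under DHA and 528, 500.5 and 477 CPM in sh-LUC cells under DHA. HK2, a hexokinase, was higher (log2 fold change 1.29, SE 0.06, adjusted p = 1.0e-42). Cytosolic ribosomal proteins were higher in 30 of 32 cases and lower in none, with a median of 0.63, and in vehicle in 28. The higher count under DHA was 20 with library size scaling. RPS3, of the small subunit, had 869, 853 and 916 CPM in the sh-IGFBP6 DHA libraries, against 376, 329.5 and 359.9 CPM in the sh-LUC DHA libraries (log2 fold change 1.31, SE 0.05, adjusted p = 8.7e-47). Ribosomal protein genes have many processed copies that can share their reads. The nuclear-encoded respiratory chain was even, 11 higher and 11 lower of 30, and 9 and 7 with library size scaling. Of 13 mitochondrially encoded messenger RNAs 2, MT-ND2 and MT-ND6, were called higher, with a median of 1.03 over the 13. Without sh-IGFBP6 erastin replicate 3 the count was 12, and with the DHA and vehicle libraries alone it was 13. With the 6 DHA libraries alone it was 10, with library size scaling 12, and with the replicate block 1. The MT-ND6 call was lost without sh-LUC DHA replicate 3 (adjusted p = 0.051), and the MT-ND2 call without any 1 of the 3 sh-LUC DHA replicates (0.076 to 0.12) or sh-IGFBP6 DHA replicate 1 or 2 (0.10 and 0.097), with the replicate block (0.065), with RLE factors (0.051) and without the filter on low counts (0.12). MT-ND6, a subunit of complex I, had 844, 708 and 548 CPM in the sh-IGFBP6 DHA libraries, against 263, 241 and 210.3 CPM in the sh-LUC DHA libraries, and the share of mitochondrial ribosomal RNA, given above, was higher in the same libraries.

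Among genes with the most altered line difference, TRIML2 had 113, 98.8 and 90.3 CPM in the sh-IGFBP6 DHA libraries, against 3.30, 4.61 and 4.21 CPM in the sh-LUC DHA libraries, a difference larger than in vehicle by 3.50 (SE 0.35, adjusted p = 5.2e-15). CAVIN2, a coat protein of caveolae, had 22.4, 20.7 and 24.4 CPM in the sh-IGFBP6 DHA libraries, against 114, 118 and 101 CPM in the sh-LUC DHA libraries (log2 fold change -2.32, SE 0.09, adjusted p = 3.9e-49). In vehicle CAVIN2 had 295, 304 and 286 CPM in sh-IGFBP6 vehicle libraries and 203, 205 and 222 CPM in sh-LUC vehicle libraries, so that the lines changed order, with a line difference under DHA minus that in vehicle of -2.81 (SE 0.11, adjusted p = 7.6e-46). CAV1 and CAV2, the caveolins, were lower under DHA as well, at -2.00 and -1.97. CDK15, a little-studied kinase, had 0, 0.434 and 0.499 CPM in sh-IGFBP6 cells under DHA and 4.29, 6.33 and 5.16 CPM in sh-LUC cells under DHA, against 3.59, 4.02 and 2.94 CPM in sh-IGFBP6 vehicle libraries and 7.74, 6.57 and 8.34 CPM in sh-LUC vehicle libraries. PEAR1, a platelet receptor, was higher in sh-IGFBP6 under both conditions, averaging 5.10 CPM in sh-IGFBP6 DHA and 0.668 CPM in sh-LUC DHA. Its line difference under DHA minus that in vehicle was -2.89 (SE 0.89, adjusted p = 0.012), a call lost with DESeq2 (adjusted p = 0.054), without sh-LUC vehicle replicate 2 (0.064) and without sh-LUC DHA replicate 3 (0.076). SKIL, a repressor of TGF-beta signals, had overlapping groups and a log2 fold change of 0.23 under DHA, against -1.84 in vehicle. Its call under DHA was lost with DESeq2 (adjusted p = 0.12), without sh-LUC DHA replicate 1 (0.076), without sh-IGFBP6 DHA replicate 2 (0.11), with library size scaling (0.22) and without the filter on low counts (0.21).

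Set against erastin, the line difference under DHA stood apart at 5042 genes (33.2%), 2489 (16.4%) with a more positive and 2553 (16.8%) with a more negative difference. Between the lines under erastin 10263 genes (67.6%) were called, 5142 (33.9%) higher and 5121 (33.7%) lower. The sh-IGFBP6 erastin library that stood apart is in these counts, and without it 5093 genes differed between DHA and erastin and 5077 were higher and 5415 lower under erastin. HMOX1 reversed: its line difference was 3.83 under DHA and -1.38 under erastin, apart by 5.22 (SE 0.15, adjusted p = 3.2e-15). Without that library the HMOX1 difference under erastin was -1.46 and that from DHA 5.27 (adjusted p = 1.2e-25). SLC7A11 did so too, with 1.38 under DHA and -0.49 under erastin, apart by 1.87 (SE 0.08, adjusted p = 9.3e-38), and without that library -0.53 under erastin, apart by 1.89 (adjusted p = 3.6e-32). NRF2 targets, of which 19 were higher under DHA, were higher in 8 and lower in 14 cases under erastin, and 15 of the 23 had a more positive line difference under DHA. Mitosis genes, of which 24 of 27 were lower under DHA, were higher in 18 cases and lower in 1 under erastin, with 26 more negative under DHA. For the integrated stress response the counts under erastin were 2 higher and 19 lower of 24, and 16 had a more positive line difference under DHA. For heat shock genes they were 6 higher and 13 lower of 22, and 16 were more positive under DHA. Without the library that stood apart, the line comparison under erastin had 8 NRF2 targets higher and 14 lower, 17 mitosis genes higher and 1 lower, 2 stress response genes higher and 19 lower, and 5 heat shock genes higher and 14 lower. The test of DHA against erastin then called 16 more positive NRF2 targets (of the 24 tested without it), 26 more negative mitosis genes, and 16 more positive genes of the stress response and 16 of heat shock.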

How the data were processed

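RNA was measured by sequencing in 18 libraries, and the 6 DHA libraries carry the comparison. The deposited values are raw counts per gene, made by the authors with cutadapt 4.4 (a read trimmer), STAR 2.7.7a (an aligner) and featureCounts (a read counter) on GRCh38, per the submitters' processing notes, which are used here without their settings. As for annotation release and strand setting, neither is given in the sources used here, so reads of overlapping and antisense genes cannot be parted. Per the labels' protocols, ribosomal RNA was depleted and libraries were made with MGIEasy kits.

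Of 60709 genes, 15189 passed edgeR's filterByExpr (minimum count 10, minimum total 15). A row naming no gene held at most 0.0108% of a library and was left out. Counts of all 18 libraries were fitted in edgeR 4.0.16 (R 4.3.3) with TMM factors and 1 coefficient per group, and contrasts were tested by the quasi-likelihood F test with Benjamini-Hochberg adjustment over all tested genes, called under 0.05. The common dispersion gave a biological coefficient of variation of 6.29%, on 12 residual degrees of freedom. SE is the log2 fold change over the root of F. On simulated counts of 15189 genes for the DHA comparison, 76% of 50 genes changed 1.5-fold and 88% of 50 genes changed 2-fold were called. For the test of the change from vehicle the shares were lower, 44% and 70%. In each simulation 14989 genes were left unchanged, and the changed ones had an expected mean count of at least 10, with as many raised as lowered. In the data 69.9% and 20.6% of genes were called by these tests, so the simulated shares do not give the sensitivity of either.

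The members and lists were chosen with earlier results of these data known. Genes are named as key genes, as extremes of the line difference or of its change from vehicle at 5 CPM or more, as reversals, and as up to 4 members per list by p and up to 2 against its majority, and a few of these are not reported here. Same-numbered replicates did not deviate together (correlations of -0.0398 to 0.106), so numbers were not used to pair samples. DESeq2 1.42.0, RLE factors, library size scaling, no filter, subsets of libraries and single omissions were tried. Promoters of 27305 genes, 250 bases before the start, are RefSeq's (GRCh38.p14). Gene coordinates are GENCODE 29.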

Additional observations from a re-analysis of the deposited data

Results flagged for a closer look

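The line difference under DHA differed from that in vehicle at 3126 genes and from that under erastin at 5042 genes, by the interaction test in edgeR, and the genes named here are those of the naming rule that are reported, with an adjusted p under 0.05. Each value is the log2 line difference, sh-IGFBP6 over sh-LUC, under DHA minus that in vehicle, from 3 libraries per group.

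Among the genes of iron, cystine and peroxide handling, the difference was more positive under DHA for HMOX1 (3.49), PTGS2 (2.55), GCLM (1.57), FTH1 (1.48), TXNRD1 (1.28), AIFM2 (1.02), SLC3A2 (0.90), FTL (0.62), NQO1 (0.50), NFE2L2 (0.46) and KEAP1 (0.37). It was more negative for TFRC (-1.71) and SLC7A11 (-0.56). The values of FTL, NQO1, NFE2L2, KEAP1, SLC3A2 and SLC7A11 were not called with library size scaling, and that of KEAP1 was lost in 7 of the fits with 1 library left out.

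Of lipid genes, ANGPTL4 (1.39), INSIG1 (0.90), PLIN2 (0.66) and HMGCS1 (0.59) were more positive, the last 2 not with library size scaling. Stress and cytokine genes with a more positive difference were CXCL2 (3.92), HSPA1A (3.73), CSF2 (3.62), CXCL3 (3.50), TRIML2 (3.50), INHBA (2.24), DNAJB1 (2.09), SKIL (2.07), CDKN1A (1.85), HSPA5 (1.42) and DDIT3 (1.39).

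More negative were CAVIN2 (-2.81) and CDK15 (-2.76). Also more negative, at low transcript levels, were ZNF257 (-4.67), the unnamed gene ENSG00000254951 (-3.05), PEAR1 (-2.89) and the antisense transcript SLCO4A1-AS1 (-2.68). Each of these last 4 lost its call in at least 1 fit with a library left out, and the value of ZNF257, which had no count in sh-LUC vehicle, depends on the prior count.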

How the results depend on the processing

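Gene counts higher and lower under DHA stayed within 1.5 times of 5332 and 5285 under every alternative run: 4477 and 4898 with DESeq2, 5054 and 5553 with RLE factors, 4158 and 4649 with library size scaling, 4999 and 6427 without the filter, 4995 and 5221 with the 6 libraries alone, and 5069 and 5160 with the DHA and vehicle libraries alone, which was chosen after seeing the data. Leaving out 1 library gave 5029 to 5318 higher and 4854 to 5520 lower. The change from vehicle, 3126 genes, was called at 1055 with library size scaling and at 2068 with DESeq2, and at 2641 to 3172 with 1 library left out. Without the filter 2486 were called, 804 more positive and 1682 more negative. The change from erastin, 5042 genes, was called at 2376 with library size scaling, 833 more positive and 1543 more negative, and at 3954 to 5093 with 1 library left out. The fit with library size scaling held all 18 libraries. Among them was sh-IGFBP6 erastin replicate 3, whose TMM factor was 0.433, against 1.049 to 1.094 in the DHA libraries. In that edgeR fit ACSL4 and ATF4 lost their calls under DHA at log2 fold changes of -0.41 and 0.33 (adjusted p = 0.085 and 0.21). The cause of the shifts in these counts was not tested. Replicate numbers only name samples: with the replicate block the counts were 5359 and 5298 under DHA, 3221 for the change from vehicle and 5110 for that from erastin. For the line difference under DHA, of 3190 alternative values of 228 named genes, 3148 kept direction and side of the threshold, 42 lost the call and none reversed. For its change from vehicle, of 664 values of 35 genes, 634 did so, 30 lost the call and none reversed. Many of these genes were named for a small p or a wide difference in these same data. Their stability is therefore partly built in and does not speak for genes that were not named. Of genes at 1 to 10 CPM 56.3% were called, and of the 243 below 1 CPM 67.9%. Genes this low could pass the filter through a group where they were higher, so the last share is no rate for low levels in general.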
